A study of Mus musculus with 74 samples.

Results

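Enpp7, Asah2, Pla2g4c and Plb1 encode lipid-cleaving enzymes that were picked by name, as 4 of the 24015 genes in a count table, because their transcripts were low in epithelium labelled as lacking the intestinal transcription factor Cdx2. The values that chose them are their levels in the knockout comparisons, so those comparisons are described here without a test, while tests are given for wild-type (WT) embryos between stages of the stomach, between organs at embryonic days (E) 12 and 14, between the stomach regions at E16, and from E12 to E14 in the small intestine. Differences that involve WT small intestine at E16 or E18 are given with no p-value, because those libraries are the controls of the embryonic knockout comparisons and so took part in choosing the genes. Where members past the call rule are counted in them, the count is a description. All 4 genes passed the filter on low counts in the fits used. Among embryos, however, Enpp7 passed it only through the 2 WT libraries at E18. In the adult fit Enpp7 (4 and 4 counts in the knockout libraries) and Plb1 (8 and 11 counts) passed it only through the adult WT libraries. Levels are given as counts per 1000000 counts of a library (CPM), scaled by TMM, a trimmed-mean library scaling, over 31 RNA-seq libraries in 15 groups. A gene at 3 counts or fewer in every library of a group was treated as at the floor, and a fold against such a group is a lower bound.

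WT embryos were untreated mice of the outbred strain CD1 with no engineered allele. Epithelium of the forestomach, hindstomach and small intestine was taken at E12, E14 and E16, and of the small intestine also at E18, with 2 libraries in each group. For the small intestine the labels name the cells midgut at E12 and E14. Knockout embryos were of a B6;129 mixed background and carried Cdx2f/f, a Cdx2 gene flanked by recombination sites. Embryos labelled as deleted at E10 were Cdx2f/f; Shh-Cre, received no treatment and were taken at E16, with 3 libraries. Shh-Cre carries the recombinase under the Shh gene, which is active in the gut endoderm. Embryos labelled as deleted at E13 or E15 were Cdx2f/f; Villin-Cre, with the recombinase driven by the promoter of an intestinal epithelial gene. They were exposed to 5 mg tamoxifen given by oral gavage and were taken at E16 and E18, with 2 libraries each. Adult villi came from the distal ileum of B6;129 mice that all carried Cdx2f/f. The 2 adult knockout libraries were from Cdx2f/f; Villin-Cre mice given 1 mg tamoxifen intraperitoneally on 5 consecutive days, and the 2 adult WT libraries from Cdx2f/f mice without Cre given only the oil vehicle. Both were taken 3 days after the last injection. Strain and Cre therefore differ between the embryonic knockout and WT groups together with Cdx2, and in the E13-deleted and E15-deleted groups tamoxifen does too. In the adult Cre and tamoxifen differ together with Cdx2, so that in each comparison these cannot be told apart. The labels do not say whether libraries of a group came from separate animals or litters, so the spread between them may be technical.

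Total counts ran from 5970227 to 62463167 per library. The targeted gene was checked first. Cdx2 was at 13.9 to 26.7 CPM in the E10-deleted libraries against 184.2 and 204.5 CPM in WT at E16. It was not lower in the other knockout groups, at 197.6 and 202.2 CPM in the E13-deleted libraries, 343.9 and 359.2 CPM in the E15-deleted libraries against 185.2 and 192.4 CPM in WT at E18, and 695.9 and 729.7 CPM in the adult knockout against 337.9 and 343.4 CPM in the adult WT. Counts over the whole gene also take in any transcript left outside the deleted part, and how much of it they hold was not tested in any group. Where Cdx2 was not lower they therefore do not check the deletion, and the libraries are named here by their labels. The E13-deleted libraries stood apart from the other E16 libraries: across 17239 genes their mean Spearman correlation was 0.933 with WT E18 and 0.840 with WT E16 small intestine. All 8 enterocyte markers were detected in every small intestine group from E16 on, and their summed level was 9629 to 10174 CPM in WT at E16, 54876 to 55512 CPM in WT at E18 and 37793 to 46092 CPM in adult WT villi.

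Dietary sphingomyelin and phospholipids are cut at the surface of enterocytes, the absorptive cells of the villus, before their products are taken up. Enpp7 encodes alkaline sphingomyelinase, which sits on the brush border and cuts sphingomyelin to ceramide, and Asah2 encodes neutral ceramidase, which cuts that ceramide to sphingosine and a fatty acid. Plb1 encodes phospholipase B, a brush border enzyme that removes fatty acids from phospholipids, while Pla2g4c encodes cytosolic phospholipase A2 gamma, which acts inside the cell. Cdx2 is a homeobox factor that binds and activates many genes of the intestinal epithelium.

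The 250 bases before the annotated start of each gene are shown because the 4 genes were low together in the adult knockout, and so that short motifs of 2 factors of the enterocyte can be read in place. Each is from RefSeq on the GRCm38.p6 build, 5′ to 3′ on the strand of the gene, with capitals marking the core TTTAT of CDX factors and the core CAAAGT of HNF4 factors, searched on both strands (ATAAA and ACTTTG on the reverse strand).
Enpp7, chr11:118987931-118988180, plus strand: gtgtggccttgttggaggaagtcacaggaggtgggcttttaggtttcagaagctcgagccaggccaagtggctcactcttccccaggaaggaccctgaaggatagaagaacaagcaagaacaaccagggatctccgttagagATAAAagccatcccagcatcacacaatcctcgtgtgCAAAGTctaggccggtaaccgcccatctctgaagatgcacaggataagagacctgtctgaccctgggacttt
Asah2, chr19:32103141-32103390, minus strand: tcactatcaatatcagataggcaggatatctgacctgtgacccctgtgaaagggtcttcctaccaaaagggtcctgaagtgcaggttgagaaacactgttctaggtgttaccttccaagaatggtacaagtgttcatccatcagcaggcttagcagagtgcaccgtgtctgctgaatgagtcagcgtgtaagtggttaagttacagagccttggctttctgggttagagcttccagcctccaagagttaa
Pla2g4c, chr7:13325417-13325666, plus strand: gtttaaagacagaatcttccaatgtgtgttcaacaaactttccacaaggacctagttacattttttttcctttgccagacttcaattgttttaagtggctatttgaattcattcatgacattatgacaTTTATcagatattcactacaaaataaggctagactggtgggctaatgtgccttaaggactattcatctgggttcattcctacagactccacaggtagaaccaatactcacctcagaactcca
Plb1, chr5:32238834-32239083, plus strand: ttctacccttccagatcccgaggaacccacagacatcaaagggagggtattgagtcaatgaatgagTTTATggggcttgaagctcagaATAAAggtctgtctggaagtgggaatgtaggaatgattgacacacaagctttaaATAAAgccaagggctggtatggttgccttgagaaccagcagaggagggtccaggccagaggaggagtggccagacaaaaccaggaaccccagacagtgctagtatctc
The CDX core was found 1 time before Enpp7, 1 time before Pla2g4c and 3 times before Plb1, and 0 times before Asah2. The HNF4 core was found 1 time, before Enpp7. Among all 32851 windows of this length, 37.3% held the CDX core and 12.6% the HNF4 core. Pla2g4c and Plb1 each have 2 windows in the promoter table, of which the one farthest 5′ is shown. A match is only a run of letters, and binding was not measured here.

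Enpp7 was nearly silent in every embryonic group before E18. It had 0 counts in 17 of the 18 WT libraries from E12 to E16, all 12 stomach libraries among them, and 4 counts in the remaining library, a small intestine library at E16. At E18 the 2 WT small intestine libraries held 4937 and 7258 counts, or 375.9 and 371.4 CPM. Levels at the 2 ages were thus far apart and did not overlap. By mean CPM the difference was 3646-fold (log2 fold change 11.83, SE 0.63), a ratio that rests on the 4 counts at E16. Since Enpp7 had to be high at E18 to enter the fit, no test of this step is given. The adult WT villi, of another strain and library kit than WT at E18, held 1492.9 and 1025.9 CPM, the highest levels of Enpp7 in the 15 groups.

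In the libraries labelled as deleted for Cdx2, Enpp7 was at 7 counts or fewer. The E15-deleted libraries had 1 and 7 counts, or 0.0478 and 0.248 CPM, against 4937 and 7258 counts in WT of the same age. Their mean was 0.0396% of the WT mean, a 2527-fold difference (log2 fold change -11.14, SE 0.59, and -12.80 without the library with 7 counts). Both adult knockout libraries had 4 counts, or 0.256 and 0.430 CPM, against 13073 and 17083 counts in adult WT. This is a 3673-fold difference (log2 fold change -12.02, SE 0.40). The E10-deleted libraries had 0, 1 and 0 counts and the E13-deleted libraries had 0 and 0, but WT at E16 had only 0 and 4, so no fold is given for those groups. In bulk samples fewer cells of a type and less RNA per cell cannot be told apart, which holds for every level given here. Summed enterocyte markers were 31359 to 31697 CPM in the E15-deleted libraries, below the 54876 to 55512 CPM of WT, with 2 of 8 called lower and 0 higher. In the adult knockout they were 43730 to 51862 CPM, overlapping the adult WT, with 3 of 8 called lower and 2 higher. Gastric mucous markers summed to 31.4 to 34.2 CPM in the E15-deleted libraries against 0.838 to 0.972 CPM in WT, and to 6.21 to 7.41 CPM in the adult knockout against 0.235 to 0.3496 CPM in WT, with Tff1 at 0 in all 4 groups, and blood and immune markers to 482.9 to 497.0 CPM in the adult knockout against 945.5 to 3039 CPM. In the E15-deleted libraries blood and immune markers summed to 139.1 to 139.6 CPM against 708.1 to 749.3 CPM in WT, enteroendocrine markers to 183.8 to 185.2 against 604.1 to 612.6 CPM, and stem and crypt markers to 941.9 to 954.3 against 467.4 to 476.8 CPM. Enteroendocrine markers were also below WT in the adult knockout, at 66.7 to 72.8 against 208.8 to 300.0 CPM. The summed stem and crypt markers were above WT there, at 561.3 to 669.6 against 330.0 to 349.4 CPM. Of those 5 markers only 1 was called higher and 0 lower in the adult, with a median log2 fold change of -0.19. With deletion at E15, 3 of the 5 were called higher and 0 lower. The part of these in the Enpp7 level was not tested.

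Asah2, the next enzyme on the sphingomyelin pathway, was present earlier and followed a path with a dip. In the small intestine it had 47 and 137 counts at E12 (1.499 and 4.14 CPM), 6 and 3 counts at E14 (0.0783 and 0.112 CPM), and 207 and 128 counts at E16 (9.77 and 6.56 CPM). At E18 it reached 1657.8 and 1667.3 CPM, and in adult WT villi 2496.6 and 1804.7 CPM. No 2 neighbouring ages overlapped. The adult WT libraries differ from those at E18 in strain, gut region and library kit too, so that step is not one of age alone. Asah2 fell by 4.95 on the log2 scale from E12 to E14 (SE 0.67, adjusted p = 3.627e-05, edgeR's quasi-likelihood test with Benjamini-Hochberg adjustment over 17239 genes). At E16 it lay 6.49 above E14 on the log2 scale (SE 0.63), and at E18 it lay 7.68 above E16 (SE 0.46), both given without a test. Other markers moved with the step from E14 to E16: enterocyte markers summed to 802.8 to 808.1 CPM at E14 and 9629 to 10174 CPM at E16, mesenchyme and muscle markers to 313.2 to 340.7 and 1249.5 to 1340 CPM, and blood and immune markers to 15.7 to 18.2 and 339.3 to 346.5 CPM. Their part in the Asah2 level was not tested. The fall from E12 was not called when only those 2 groups were fitted (edgeR adjusted p = 0.0792, in a range over 11 alternatives of 4.368e-10 to 0.0792), and the 2 E12 libraries differ 2.76-fold in Asah2. Over this step enterocyte markers summed to 118.6 to 197.5 CPM at E12 and 802.8 to 808.1 CPM at E14, stem and crypt markers to 10.91 to 10.95 and 71.3 to 75.5 CPM, blood and immune markers to 3.48 to 6.70 and 15.7 to 18.2 CPM, and enteroendocrine markers to 222.5 to 234.1 and 136.2 to 145.9 CPM. The part of these in the fall was not tested.

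In the developing stomach Asah2 stayed low. The hindstomach held 7 and 19 counts at E12, 7 and 7 at E14, and 18 and 11 at E16, and the forestomach held 6 counts or fewer in each of its 6 libraries. The hindstomach values span 0.205 to 0.755 CPM, so its 3 ages lie close together. At E12 small intestine exceeded hindstomach by 2.91 on the log2 scale (SE 0.55, edgeR adjusted p = 0.00170) and forestomach by 4.99 (SE 0.72, edgeR adjusted p = 1.188e-04). Neither was called with only the groups compared in the fit, where edgeR's adjusted p was 0.391 and 0.270, the upper end of their ranges over 11 alternatives, which begin at 6.849e-05 and 2.216e-08. Without 1 library at a time the first difference ran from 2.00 to 3.77 on the log2 scale. The second ran from 4.08 to 9.15, the upper value without the forestomach library with 6 counts, which leaves 1 at 0 counts and makes the fitted value depend on the prior count. At E12 pancreatic acinar markers summed to 305.3 to 329.5 CPM in small intestine, 4.47 to 5.11 CPM in hindstomach and 109.8 to 112.0 CPM in forestomach. Enteroendocrine markers summed to 222.5 to 234.1, 1.67 to 5.37 and 352.7 to 383.4 CPM, and enterocyte markers to 118.6 to 197.5, 84.5 to 86.9 and 8.03 to 9.11 CPM in the same order. Cdx2 itself was at 144.2 and 109.1 CPM in small intestine, 110.5 and 152.0 CPM in hindstomach and 2.22 and 2.05 CPM in forestomach at E12. The part of Cdx2 and of these markers in the Asah2 differences was not tested. At E16 small intestine lay above hindstomach by 3.76 (SE 0.52), and it was at least 18.6-fold higher than forestomach, where both libraries had 0 counts, both given without a test. At E14 the difference from hindstomach was -1.42 on the log2 scale and was not called (adjusted p = 0.473 by edgeR). The fitted E14 to E16 change in small intestine exceeded that in hindstomach by 5.19 on the log2 scale (SE 1.25), again without a test. Where a result below is given without 1 library, a lone library left in a group was assumed to vary like the other groups.

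In the adult knockout the fold difference of Asah2 was the smallest of the 4, and in the E13-deleted group it was above WT of the labelled age. The E15-deleted libraries held 234.2 and 254.5 CPM, 14.7% of the WT mean at E18 (log2 fold change -2.76, SE 0.36, 6.80-fold). The adult knockout libraries held 27.2 and 30.6 CPM, 1.34% of the adult WT mean (log2 fold change -6.35, SE 0.26, 74.4-fold). Both groups lay wholly below their WT libraries, and both kept reads, between 285 and 7186 counts a library. In the E10-deleted libraries Asah2 was at 6.15, 7.21 and 2.64 CPM, overlapping the 9.77 and 6.56 CPM of WT at E16 (log2 fold change -0.60, SE 0.37). Those libraries had 1671 to 4007 CPM of enterocyte markers, below WT, with 2743 to 8557 CPM of gastric mucous markers against 2.83 to 3.02 CPM in WT and 288.5 to 1229.5 CPM of squamous markers against 0.103 to 0.519 CPM. The E13-deleted libraries held 116.6 and 114.4 CPM and so lay above both WT libraries at E16, by a log2 fold change of 3.83 (SE 0.39) or 14.15-fold. They lay far below the 1657.8 and 1667.3 CPM of WT at E18, the one of the 4 WT groups compared to which these libraries were closest in rank. The direction of Asah2 in this group therefore depends on the WT age it is set against, and the labelled stage could not be checked here. The E13-deleted libraries were above WT E16 in summed enterocyte markers (38032 to 38828 against 9629 to 10174 CPM) and below it in mesenchyme and muscle markers (31.1 to 34.9 against 1249.5 to 1340 CPM). Their gastric mucous markers summed to 2899 to 2995 CPM, against the 2.83 to 3.02 CPM of WT at E16 and 0.838 to 0.972 CPM of WT at E18, and the part of these markers in the Asah2 level was not tested.

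**Figure D1:**
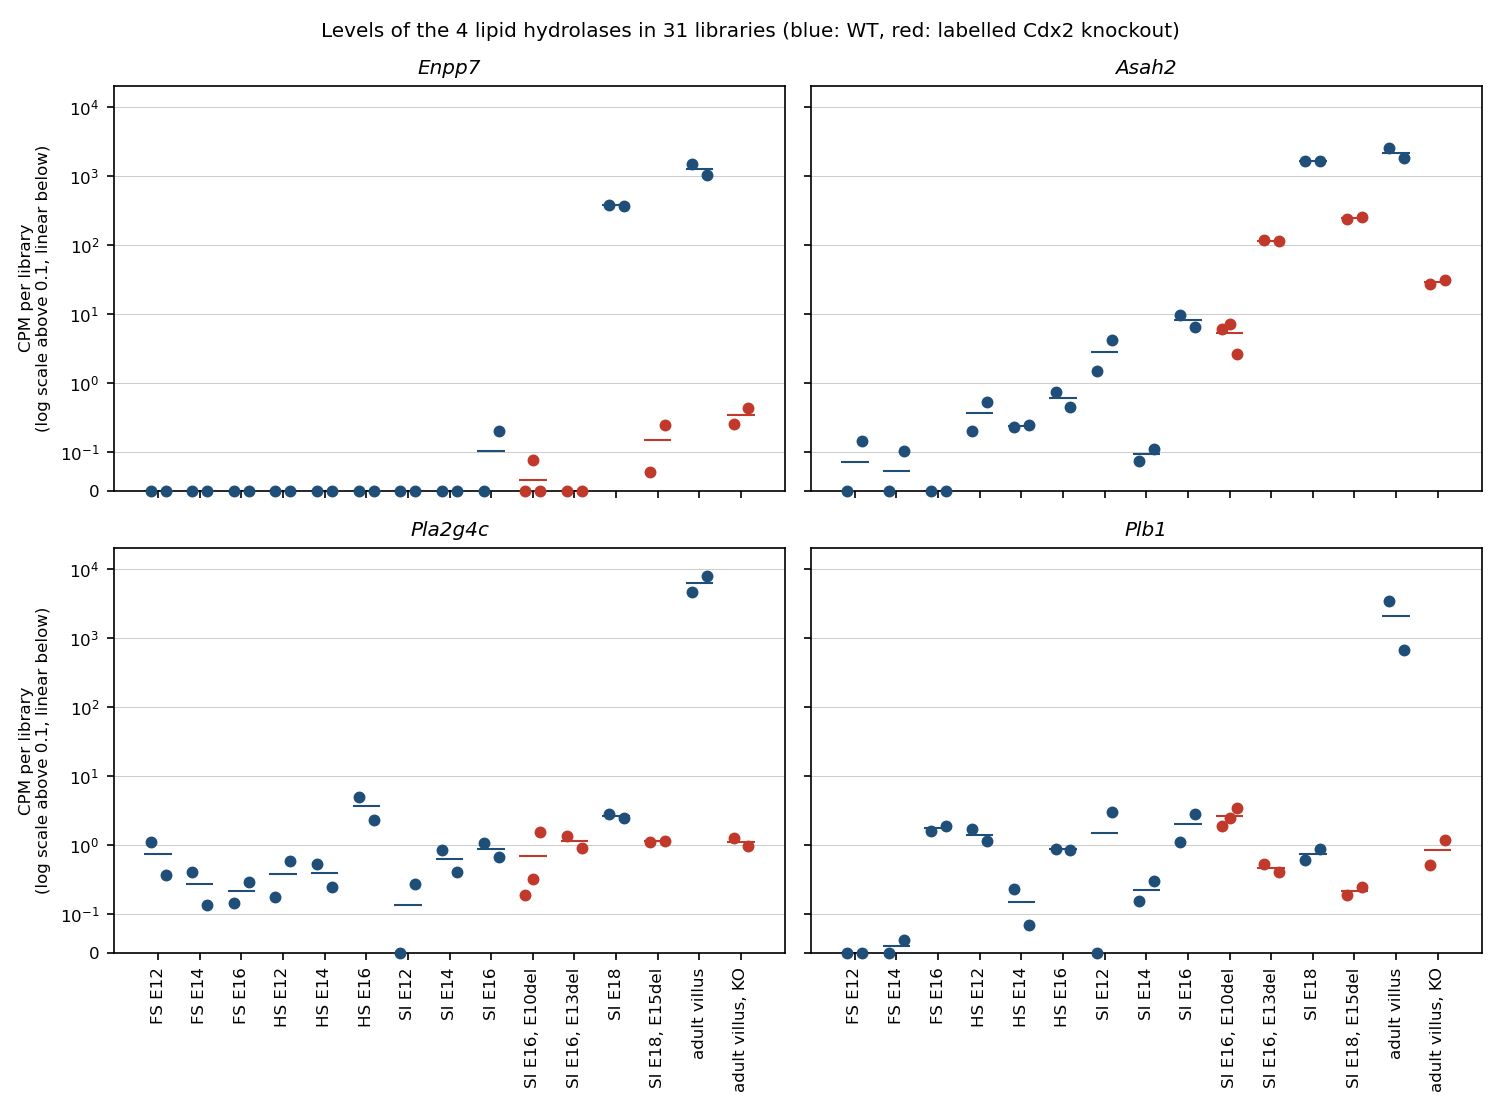
CPM of each gene in every library by group, on an axis that is logarithmic above 0.1 CPM and linear below it. FS is forestomach, HS hindstomach and SI small intestine, points are libraries (blue WT, red labelled Cdx2 knockout) and bars are group means. Enpp7 is at 371 CPM or more only in WT at E18 and in the adult, Asah2 climbs from E14, and Pla2g4c and Plb1 pass 6 CPM only in adult WT villi.

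Pla2g4c was abundant only in adult WT villi among the 15 groups. It had at most 120 counts in any of the 27 embryonic libraries, a highest level of 5.04 CPM, and 52346 and 99043 counts in the adult WT libraries, or 4574.6 and 7772.3 CPM. Adult and embryonic libraries were made with different kits and fitted apart, so this step was not tested. Within the small intestine its levels were 0 and 0.272 CPM at E12, 0.861 and 0.411 at E14, 1.09 and 0.666 at E16, and 2.82 and 2.51 at E18. The WT libraries at E18 lay above those at E16, with a log2 fold change of 1.61 (SE 1.07), and those at E16 and E14 overlapped (log2 fold change 0.47, SE 1.05), both given without a test. The step from E12 to E14 was not called by edgeR (adjusted p = 0.157). It was called without the E12 library with 9 counts, which leaves 1 library at 0 counts (edgeR adjusted p = 0.0125).

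The highest embryonic level of Pla2g4c was in the hindstomach. There the E16 libraries held 5.04 and 2.30 CPM, against 0.535 and 0.250 at E14 and 0.175 and 0.596 at E12. Pla2g4c rose in hindstomach from E14 to E16 by 3.21 on the log2 scale (SE 1.13, edgeR adjusted p = 0.0329), and at E16 it was at least 8.34-fold higher there than in forestomach, which had 1 and 2 counts (edgeR adjusted p = 0.0230). In the hindstomach mesenchyme and muscle markers summed to 112.3 to 121.2 CPM at E14 and 6402 to 6655 CPM at E16, and blood and immune markers to 3.25 to 3.78 and 1463 to 1948 CPM. At E16 the forestomach held 18118 to 23050 CPM and 13240 to 17748 CPM of these markers. Enterocyte markers summed to 59.9 to 62.3 and 371.7 to 385.0 CPM in hindstomach at E14 and E16, and 13.45 to 14.26 CPM in E16 forestomach. In that order goblet markers summed to 143.2 to 152.7, 537.3 to 667.2 and 10.77 to 12.56 CPM. Pancreatic acinar markers likewise summed to 1031.5 to 1064.8, 2334 to 2692 and 72.5 to 120.0 CPM. The part of all these markers in the Pla2g4c differences was not tested. Both calls rest on few reads. The first was lost without either E14 library or without the first E16 library, with adjusted p of 0.105, 0.208 and 0.163 by edgeR (range over 11 alternatives 7.194e-04 to 0.208). The second was lost without either forestomach library or the first hindstomach library, with adjusted p of 0.154, 0.0894 and 0.112 by edgeR (range over 11 alternatives 0.00673 to 0.154). Both small intestine libraries at E16 lay below both of hindstomach, with a log2 fold change of -2.05 (SE 1.07) that is given without a test.

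In the adult knockout Pla2g4c lay within the embryonic range. Its 2 libraries had 20 and 9 counts, or 1.28 and 0.967 CPM, against the 52346 and 99043 counts of adult WT. That is 0.0182% of the WT mean and a 5496-fold difference (log2 fold change -12.52, SE 0.51), the largest fold among the 4 genes in the 4 knockout comparisons. At E18 the E15-deleted libraries held 1.10 and 1.17 CPM, below the 2.82 and 2.51 CPM of WT, from 23 to 49 counts a library (log2 fold change -1.22, SE 1.05). At E16 the E10-deleted libraries (0.192, 0.320 and 1.56 CPM) and the E13-deleted libraries (1.38 and 0.913 CPM) both overlapped WT. Both carried 36 counts or fewer a library.

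Plb1 had the same adult peak but a wider spread. The adult WT libraries held 39890 and 8649 counts, or 3486.1 and 678.7 CPM, and were 5.14-fold apart. Of 11910 genes compared between these 2 libraries, 46 (0.386%) were at least as far apart, and the median gene differed 1.15-fold. For the other members the ratio was 1.38 for Asah2, 1.46 for Enpp7 and 1.70 for Pla2g4c, and Pla2g4c was higher in the library in which Plb1 was lower. The same libraries differed in blood and immune markers, whose sum was 945.5 CPM in one and 3039 CPM in the other, and the part of this was not tested. The adult knockout libraries had 8 and 11 counts, or 0.512 and 1.18 CPM, so both lay far below the lower WT library. By means this is a 2459-fold difference (log2 fold change -11.49, SE 1.26). Without 1 library at a time the log2 fold change ran from -12.24 to -9.885. The SE of Plb1 is the largest of the 4 genes in the adult comparison.

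In embryos Plb1 was found at low levels in all 3 organs. It had at most 100 counts in any of the 27 libraries. Within the small intestine it was at 0 and 3.02 CPM at E12, 0.157 and 0.299 at E14, 1.13 and 2.87 at E16, and 0.609 and 0.870 at E18, and the step from E12 to E14 was not called by edgeR (adjusted p = 0.109). Both E16 libraries lay above both E14 libraries, by a log2 fold change of 3.17 (SE 1.28) that is given without a test. The step from E12 to E14 turned with the E12 library kept: without the library with 100 counts Plb1 was called higher at E14 (edgeR adjusted p = 0.0206), and without the library with 0 counts it was called lower (edgeR adjusted p = 0.00340), each time with 1 library left at E12. In the forestomach it had 0 and 0 counts at E12, 0 and 1 at E14, and 11 and 13 at E16. Plb1 rose there from E14 to E16 at least 15.6-fold (edgeR adjusted p = 0.00466), in the shallowest libraries of the study. Beside it, mesenchyme and muscle markers of the forestomach summed to 103.0 to 103.6 CPM at E14 and 18118 to 23050 CPM at E16, and blood and immune markers to 4.07 to 4.83 and 13240 to 17748 CPM, and their part in the Plb1 level was not tested. In the hindstomach it held 58 and 40 counts at E12, at least 16.2-fold above the forestomach (edgeR adjusted p = 0.00916, lost without either forestomach library at 0.0717 and 0.0958, range over 11 alternatives 3.317e-04 to 0.0958). Cdx2 was at 110.5 and 152.0 CPM in those hindstomach libraries, 144.2 and 109.1 CPM in small intestine and 2.22 and 2.05 CPM in forestomach at E12, and at 12.03 and 5.89 CPM in hindstomach at E14. Enterocyte markers summed to 84.5 to 86.9 CPM in the E12 hindstomach and 8.03 to 9.11 CPM in the forestomach, and the part of these in the Plb1 difference was not tested. The E12 small intestine was at least 17.3-fold above the forestomach (edgeR adjusted p = 0.00683), but its 2 libraries had 0 and 100 counts. Without the library with 100 counts the difference was 0, with adjusted p = 1 by edgeR, from a single small intestine library with 0 counts whose spread was taken from other groups. Without the second forestomach library it was not called either (edgeR adjusted p = 0.0715, range over 10 alternatives 5.259e-05 to 1).

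Plb1 was also below WT in the E15-deleted libraries, at 0.191 and 0.248 CPM against 0.609 and 0.870 CPM, from 4 to 17 counts a library (log2 fold change -1.72, SE 1.29). It was below WT in the E13-deleted libraries, at 0.538 and 0.415 CPM against 1.13 and 2.87 CPM (log2 fold change -2.04, SE 1.23). Without 1 library at a time that change ran from -2.56 to -1.23. In the E10-deleted libraries it held 1.92, 2.48 and 3.48 CPM and overlapped WT. The embryonic differences of Plb1 are therefore between levels under 4 CPM, unlike the adult one.

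Counted over the 4 genes, every knockout library lay below every WT library for 4 of 4 genes in the adult (30.6% of all genes tested there) and 4 of 4 with deletion at E15 (37.3%). It did so for 1 of 4 with deletion at E13 (42.3%), where 1 of 4 lay wholly above WT (39.7%), and for 0 of 4 with deletion at E10 (38.0%). The 2 E16 comparisons share their WT libraries. Since these comparisons chose the genes, nothing is read from the counts. With deletion at E15, the 2 phospholipases were low in WT already, so the large differences there were those of Enpp7 and Asah2. In the adult all 4 genes had 8649 counts or more in each WT library and 425 counts or fewer in each knockout library.

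A gene was called at an adjusted p under 0.05 and an absolute log2 fold change of at least 1. From E16 to E18 in small intestine, 2 of 4 genes were past this rule for higher, as 20.1% of all genes tested were. These were Asah2 and Enpp7, and Enpp7 had to be high at E18 to enter the fit. From E14 to E16, 1 of 4 was past it (13.7%), and at E16, 1 of 4 in small intestine against hindstomach (8.10%) and 1 of 4 against forestomach (16.4%), Asah2 each time. The E14 to E16 change was also compared between small intestine and each stomach region. Against hindstomach, 1 of the 3 genes above the floor was past the rule for higher (3.92%). Against forestomach, 0 of the 2 genes above the floor were past it in either direction (25.4%). Nothing is read from these counts, since they rest on the WT controls that took part in choosing the genes, and Enpp7 is among the 4 only through the E18 libraries. Of the tested steps, 1 of the 3 genes above the floor was called lower from E12 to E14 in small intestine (4.89%). In the hindstomach 1 of 3 rose from E14 to E16 (16.5%), and in the forestomach 1 of 2 (20.8%). At E12, 1 of 3 was higher in small intestine than in hindstomach (3.67%), 2 of 3 than in forestomach (4.72%), and 1 of 3 in hindstomach than in forestomach (4.28%), where the last comparison at E16 gave 1 of 3 (13.8%). In the 3 organ comparisons at E14, 0 of the 3 genes above the floor were called, against 6.83%, 11.9% and 8.46% of all genes for small intestine against hindstomach, small intestine against forestomach and hindstomach against forestomach. From E12 to E14, 0 of the 3 genes above the floor were called in hindstomach (17.2%) and 0 of the 2 in forestomach (12.7%).

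The E16 and E18 small intestine samples differ in more than age, because E16 cells were sorted for the epithelial protein Epcam after trypsin and E18 cells were released from villi. Mesenchyme and muscle markers summed to 1249.5 to 1340 CPM in WT at E16 and 35.4 to 36.8 CPM at E18. Pancreatic acinar markers went from 762.5 to 818.5 CPM at E16 to 21.7 to 28.2 CPM at E18. The part of these in the E16 to E18 steps was not tested.

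Close relatives of Enpp7, Asah2 and Pla2g4c went both ways in the same libraries, and none was listed for Plb1. With deletion at E15, 16 relatives were tested, of which 3 were called lower and 5 higher, against 17.5% of all genes called in either direction. Their fitted log2 fold changes lay between -3.25 and 3.19. The lower end is Pla2g4e, at the floor in the E15-deleted libraries, for which only a bound of at least 1.84-fold can be given. Pla2g4d and Pla2g4f were at the floor in both groups. Enpp1, of the same family as Enpp7 and an enzyme that makes pyrophosphate, rose by 1.68 on the log2 scale (SE 0.38, edgeR adjusted p = 0.00203), while Enpp3 fell by 2.18 (SE 0.54, edgeR adjusted p = 0.00405). Among the other sphingomyelinases, neutral Smpd2 fell by 1.08 (SE 0.19, edgeR adjusted p = 1.920e-04) and neutral Smpd3 rose by 1.28 (SE 0.35, edgeR adjusted p = 0.00820, lost without either WT library at 0.0559 and 0.0619), and lysosomal Smpd1 was not called (log2 fold change 0.15, SE 0.23). The lysosomal ceramidase Asah1 had a log2 fold change of 0.78 (SE 0.20), below the fold minimum. Pla2g4a, which encodes the calcium-dependent relative of Pla2g4c, rose by 3.19 (SE 0.78, edgeR adjusted p = 0.00384). In the adult, 4 of 12 relatives were called lower and 3 higher, against 20.4% of all genes called in either direction. Enpp3 fell by 3.15 (SE 0.36, edgeR adjusted p = 0.00594) and Enpp1 rose by 2.91 (SE 0.31, edgeR adjusted p = 0.00523). Asah1 rose by 1.26 (SE 0.26, edgeR adjusted p = 0.0227), a call lost without either knockout library or the second WT library, where edgeR's adjusted p was 0.0544 to 0.0897. Pla2g4a was not called in the adult (log2 fold change 0.08, SE 0.42). With deletion at E10, 6 of 16 relatives were called lower and 2 higher (51.5% of all genes in either direction), and with deletion at E13, 3 were lower and 4 higher (39.5%).

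**Figure D2:**
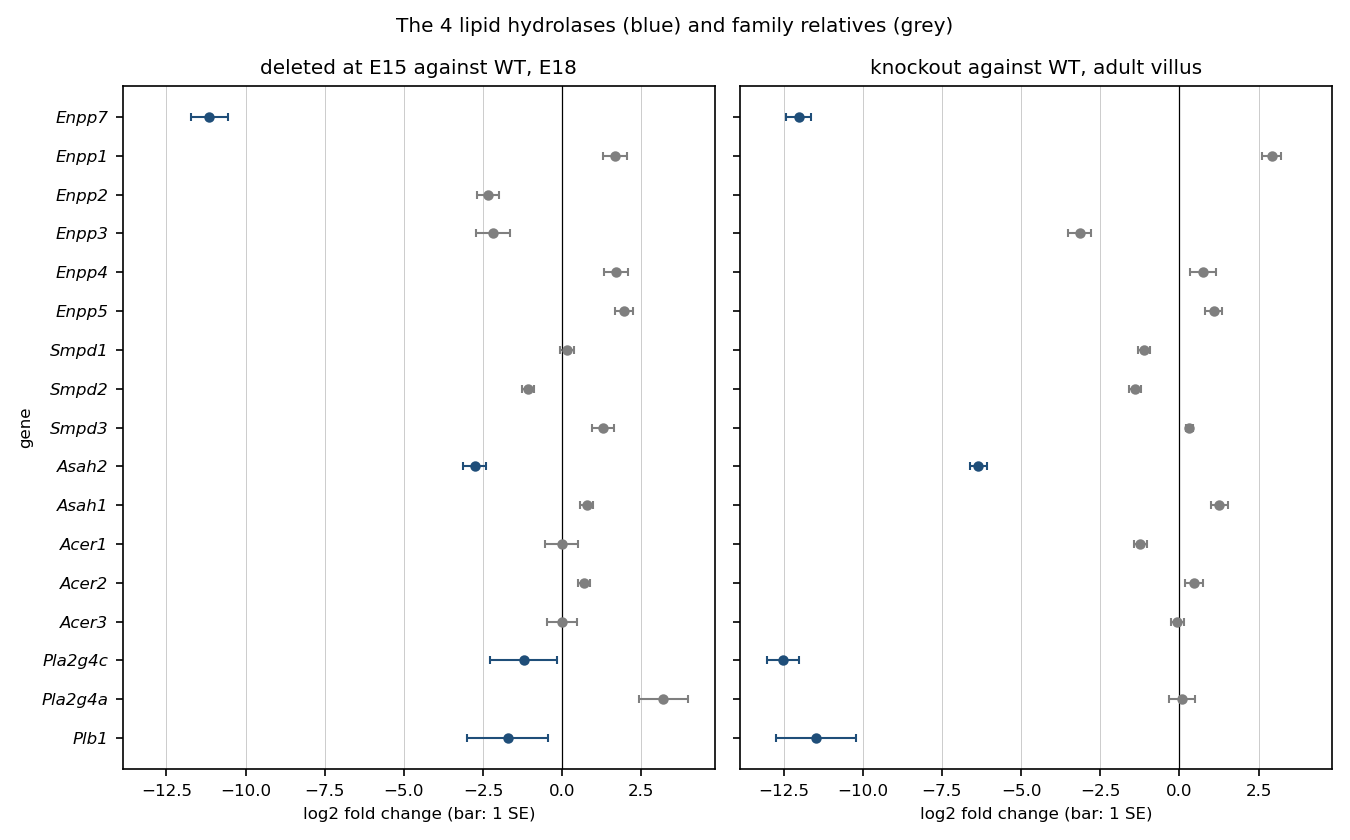
Log2 fold change of the 4 lipid hydrolases (blue) and of relatives of Enpp7, Asah2 and Pla2g4c (grey), with bars of 1 SE. Shown are deletion at E15 against WT at E18 (left) and adult knockout against adult WT villi (right). Enpp7 lies at -11.14 and -12.02, while the relatives drawn lie between -3.15 and 3.19. Relatives Pla2g4d to Pla2g4f are left out because they had almost no reads.

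The wider set of lipid enzymes was described by 5 lists of 101 genes that do not include the members. With deletion at E15, 29 of 98 tested genes were called lower and 13 higher, and fewer in each direction without any 1 library. Their median log2 fold change was -0.21 against 0 over all genes, of which 1672 were lower and 1343 higher of 17239. In the adult 20 of 83 were lower and 16 higher (median -0.18 against 0.01), beside 1497 lower and 1047 higher of 12444 genes, and without 1 or the other adult knockout library 8 and 12 were called lower. Lipid uptake and re-esterification held 10 lower and 2 higher of 16 with deletion at E15, 5 lower and 3 higher in the adult, 15 lower and 1 higher with deletion at E10, and 2 lower and 8 higher with deletion at E13. With deletion at E15 the fatty acid carrier Cd36 fell from 274.9 ± 3.85 (SD, n = 2) to 9.58 ± 0.0213 CPM, and Scarb1, a receptor for lipoprotein cholesterol, rose from 18.4 ± 0.833 to 143.5 ± 7.82 CPM. Scarb1 also rose in the adult, from 1.69 ± 0.164 to 140.1 ± 18.2 CPM. Sgpl1, which breaks down sphingosine once it is phosphorylated, fell by 2.38 with deletion at E15 (SE 0.18, edgeR adjusted p = 1.100e-08) and by 2.04 in the adult (SE 0.23, edgeR adjusted p = 0.00573). Sgpp1, which removes that phosphate, rose by 2.73 in the adult (SE 0.21, edgeR adjusted p = 0.00297). The hormone-sensitive lipase gene Lipe fell by 2.60 (SE 0.26, edgeR adjusted p = 4.008e-07) and by 3.51 (SE 0.18, edgeR adjusted p = 0.00132) in those comparisons.

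Most brush border hydrolases of sugars and peptides fell. Of them 14 of 15 were called lower with deletion at E15 and 0 higher (median -3.47), and 10 of 14 lower and 0 higher in the adult (median -2.75). Over all genes 1672 of 17239 and 1497 of 12444 were called lower. Without 1 library, 11 to 13 and 7 to 10 of the list were called lower and 0 higher. Lct, the lactase gene, fell from 4572.7 ± 20.7 to 25.2 ± 2.07 CPM at E18, and Mme, a membrane peptidase gene, fell from 629 ± 104 to 24.5 ± 1.20 CPM in the adult. With deletion at E10 the 5 lipid lists held 50 lower and 19 higher of 98 (median -1.34) and the brush border list 12 lower and 3 higher of 15, where 4753 genes of 17239 were lower and 4122 higher. With deletion at E13 they held 16 lower and 42 higher of 98 (median 0.70) and 5 lower and 6 higher of 15, beside 3582 lower and 3225 higher over all genes. Libraries of that last group, in which Asah2 was above WT, were those that stood apart. Several of the esterase genes in these lists, such as Ces2g and Ces2c, have near-identical copies, and how shared reads were counted is not given in the sources used here.

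**Figure D3:**
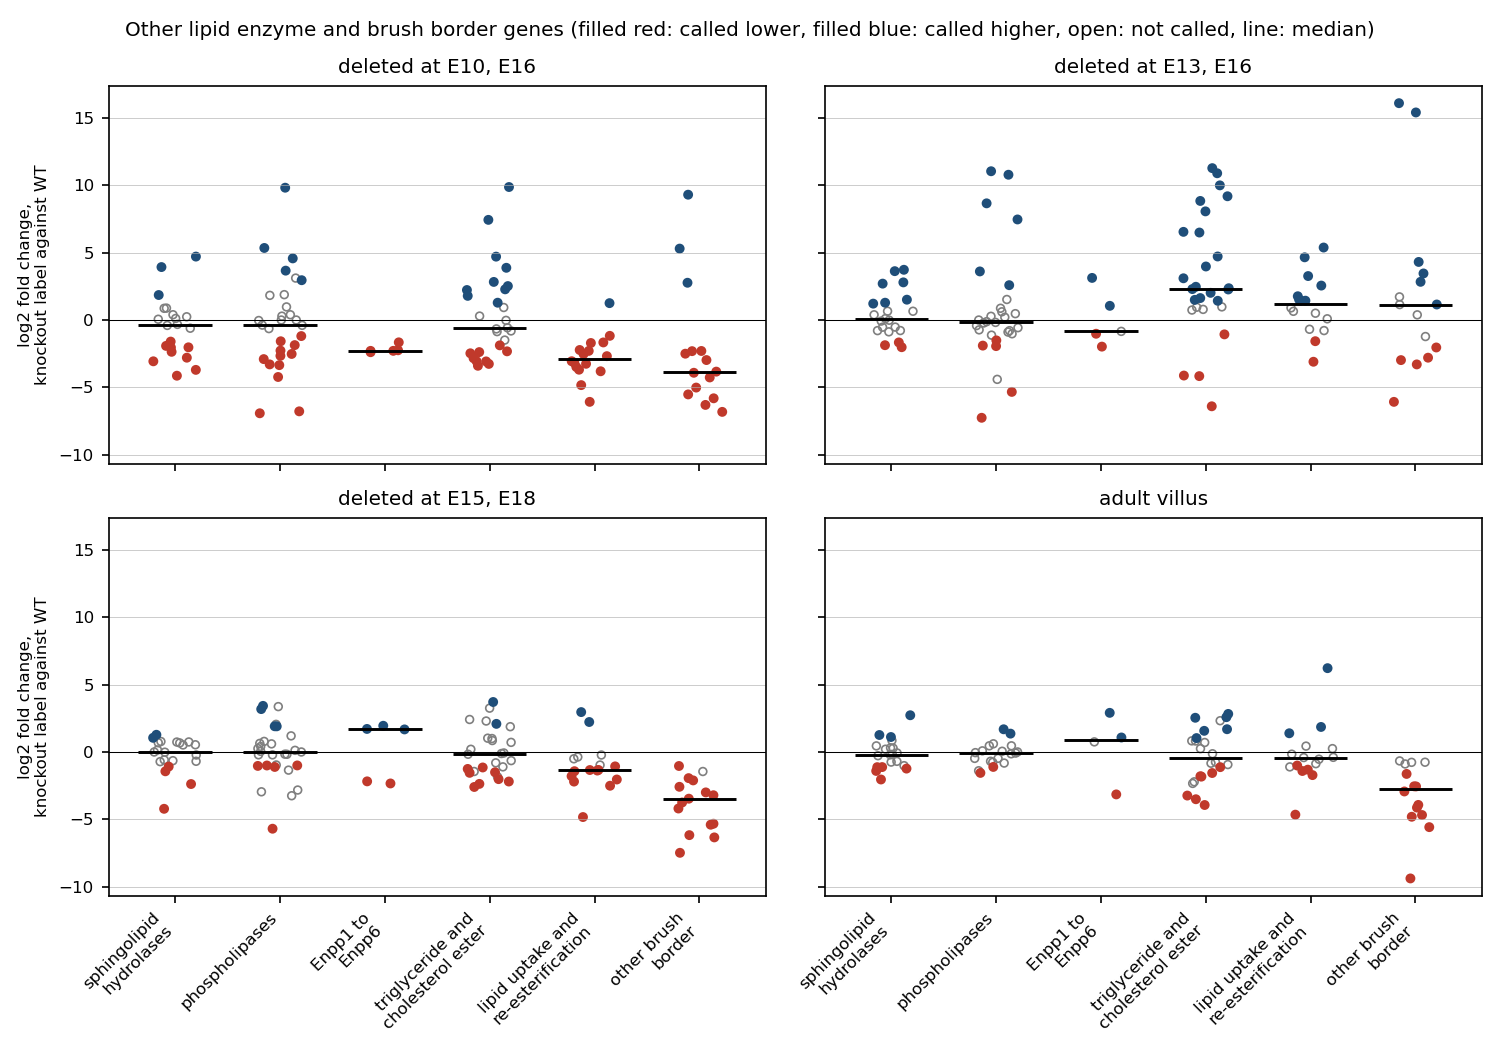
Log2 fold change of each tested gene in the 5 lipid lists and the brush border list, in the 4 knockout comparisons (filled points called lower in red or higher in blue, open points not called, lines medians). The brush border list has its median at -3.47 with deletion at E15 and -2.75 in the adult, and the sphingolipid and phospholipase lists have medians near 0 there. Fitted values of genes at the floor depend on the prior count.

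By Pearson correlation of log2 CPM over the 15 group means, the genes most like Enpp7 were Oas1e (0.961), Ttll2 (0.957), Mroh7 (0.945), Ocm (0.942) and Dnase1 (0.940). Dnase1, which encodes a secreted nuclease, was at 1.32 CPM in WT at E16, 682.4 at E18, 2.80 with deletion at E15, 279.5 in adult WT and 0.471 in the adult knockout. The genes most like Asah2 were Sec14l2 (0.972), Got1 (0.963), Dio1 (0.962), Cgref1 (0.961) and Cox7a1 (0.960). Pla2g4c was most like U90926 (0.928), Chrm4 (0.905), Slc25a48 (0.881), Fam151a (0.862) and Plb1 (0.861). Plb1 was most like Tmigd1 (0.876), Pla2g4c (0.861), U90926 (0.840), Fabp6 (0.804) and Pmp22 (0.804). Fabp6 encodes the ileal bile acid binding protein and held 3799 CPM in adult WT against 0.192 CPM in WT at E18. Between members, r was 0.530 to 0.861 over 15 groups and 0.112 to 0.671 over the 13 embryonic groups, highest for Enpp7 with Asah2 in the latter. These correlations were not tested, so the values only describe the pattern. With the adult groups left out, 1 of the 5 genes nearest Pla2g4c and 0 of those nearest Plb1 were again among the nearest 5.

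**Figure D4:**
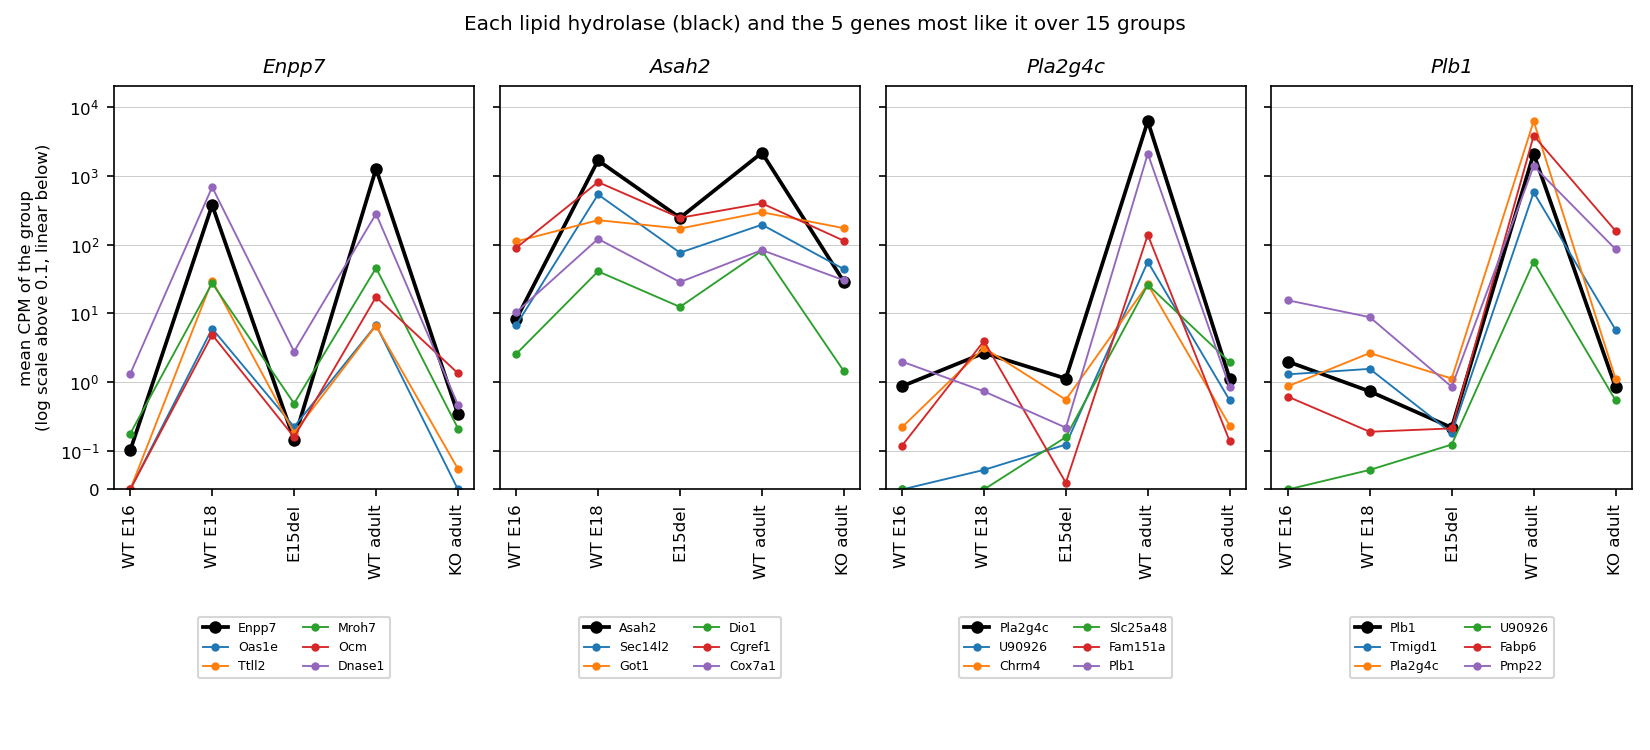
Mean CPM of each lipid hydrolase (black) and of the 5 genes most like it in 5 groups, on an axis that is logarithmic above 0.1 CPM and linear below it. The genes like Enpp7 are high at E18 and in the adult WT group and low in both knockout groups, and those like Pla2g4c and Plb1 are high in adult WT. Heights are not compared between genes, since counts depend on transcript length.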

How the data were processed

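The series was sampled by RNA-seq, ATAC-seq and ChIP-seq, and the 31 RNA libraries in 15 groups were used here. Per the labels' protocols, E12 to E16 epithelium was dissociated with trypsin and sorted for Epcam, E18 and adult villi were released with EDTA, and libraries were made with a SMARTer-Seq v4 kit (embryonic) or a TruSeq V2 kit (adult) and sequenced from one end at 75 bp. The authors deposited the values as unnormalized counts of reads for each gene symbol. The submitters' processing notes name STAR 2.5.3a, HTSeq and the build mm9, without saying which step used them. Counting, strand and annotation are not given in the sources used here, so reads shared with overlapping genes or copies (the pseudogene copy of Pla2g4c, for example) cannot be assigned. The adult columns have 2 blank cells each that put values out of register with the gene names, and these were closed up. All 4 members lie above the first blank. The table has 2 columns that match no sample used here, and these were not used.

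Counts were tested with edgeR 4.0.16 and limma 3.58.1 in R 4.3.3 (TMM scaling, filterByExpr with a minimum count of 10, estimateDisp, glmQLFit, glmQLFTest), on simulated data first. The 27 embryonic libraries were fitted together (17239 genes) and the 4 adult libraries apart (12444 genes). Genes were called at a Benjamini-Hochberg adjusted p under 0.05 over all genes and an absolute log2 fold change of at least 1. Each SE of a log2 fold change is that change, without its sign, divided by the square root of the quasi-likelihood F statistic. It is thus worked back from the fit and is not a measured spread between libraries. The planned tests that involve WT small intestine at E16 or E18 were run, but only their fitted values and counts past the call rule are given, as descriptions with no p-value, since those libraries took part in choosing the members. Totals ran from 5970227 to 62463167 counts (median 21910062), and a floor of 3 counts a library covers counting error only. The alternatives were RLE size factors, DESeq2 1.42.0, no filter, no fold minimum, a replicate block, 1 fit of all libraries, a fit of only the groups compared, and each library left out in turn. A fit without the E13-deleted libraries, all alternatives for stage changes in the stomach and all alternatives for the brush border list and the fit of only the groups compared for the interaction were added after seeing the data. Each replicate pair differed by more than counting noise, with a chi-square per degree of freedom of 122.6 at most.

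The 4 members and the gene lists were chosen with earlier results of these data known. Named beside the members are Cdx2 and the closest family relatives of Enpp7, Asah2 and Pla2g4c. Also named are up to 3 called genes per direction of each lipid and brush border list, of which the text gives some. These have the largest change among those whose groups do not overlap and whose log2 CPM averages 2 or more. Last are the 5 genes with the highest Pearson correlation with each member, among genes with a mean count of at least 10. Promoter windows are RefSeq sequences on GRCm38.p6, matched by symbol for 4 of 4 members, and were not compared with mm9 coordinates. Tables and figures were made with Python and matplotlib.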

Additional observations from a re-analysis of the deposited data

Results flagged for a closer look

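The E14 to E16 change of Asah2 was larger in small intestine than in hindstomach by 5.19 on the log2 scale (SE 1.25). This is a description, with no p-value, because it rests on the WT small intestine libraries at E16, which also took part in choosing the gene. Both small intestine libraries at E16 were above both at E14, and the same held in hindstomach, where the change was 1.31 and was not called (adjusted p = 0.235 by edgeR).

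Asah2 lay on opposite sides of WT in the knockout comparisons. Every E13-deleted library was above every WT library at E16, by a log2 fold change of 3.83, while every E15-deleted library was below WT at E18, at -2.76, and every adult knockout library was below adult WT, at -6.35. This difference between the comparisons was not tested. The E13-deleted Asah2 level of 114.4 to 116.6 CPM lies between those of WT at E16 and WT at E18. Of 4 WT groups compared, the E13-deleted libraries were closest in rank to WT at E18, and their labelled stage could not be checked here. They held 2899 to 2995 CPM of gastric mucous markers, against 2.83 to 3.02 CPM in WT at E16 and 0.838 to 0.972 CPM in WT at E18, and 2743 to 8557 CPM in the E10-deleted libraries.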

How the results depend on the processing

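Labels give no pairing of the replicate numbers, and the correlation of deviations between same-numbered libraries was -0.0807 to 0.0991 over the comparisons. With the replicate block each count of called members was as without it, for example 1 from E12 to E14 in small intestine, and the lipid lists in the adult gave 22 lower and 13 higher.

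Counts that involve WT small intestine at E16 or E18 are descriptions here too, since those libraries took part in choosing the members. DESeq2 called 2 members from E14 to E16 and 1 from E16 to E18 in small intestine, 2 in hindstomach against forestomach at E16 and 1 in hindstomach from E12 to E14. RLE size factors called 2 from E14 to E16, and shifted the median of all genes by at most 0.257 on the log2 scale (forestomach, E14 to E16). One fit of all 31 libraries called 2 members in each of small intestine E12 to E14 and E14 to E16, small intestine against hindstomach at E16, and the interaction, and 3 from E16 to E18. With no group other than those compared in the fit, it was 0 members from E12 to E14 in small intestine, 0 in small intestine against either stomach region at E12, 2 from E14 to E16 and 3 from E16 to E18 in small intestine, 2 from E14 to E16 in hindstomach, 1 from E12 to E14 in hindstomach, 2 in small intestine against hindstomach at E16 and 2 in the interaction. The causes were not tested. The fit without the E13-deleted libraries gave the same counts of called members as the report.

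Where 1 library was left in a group, its spread was taken from the other groups of the fit. Without 1 library at a time, counts of called members ran from 1 to 3 (small intestine E12 to E14), 1 to 2 (E14 to E16), 1 to 3 (small intestine against hindstomach, E12), 1 to 2 (against forestomach, E12), 1 to 2 (against hindstomach, E16), and 0 to 1 (hindstomach against forestomach at E12 and at E16, hindstomach E14 to E16, and the interaction). Members wholly below WT ran from 0 to 1 (E10) and 1 to 2 (E13), and adult lipid list calls from 8 to 19 lower and 9 to 13 higher. Plb1 in small intestine against forestomach at E12 ran from 0 (without the second small intestine library) to 9.26 on the log2 scale. Of the 5 genes most like each member, 0 (Enpp7, Asah2) and 1 (Pla2g4c, Plb1) were shared with Spearman's measure, and 3 (Enpp7), 1 (Asah2, Pla2g4c) and 0 (Plb1) over the 13 embryonic groups. Groups had 2 libraries (3 in 1 group), and Pla2g4c and Plb1 had at most 120 and 100 counts in any embryonic library, which limits the precision of their embryonic values. What size of difference could be detected at these counts was not tested.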
